A study of Mus musculus with 8 samples.

Results

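The 49 genes described here encode lysosomal proteases, glycosidases and other hydrolases, proteins of the lysosomal membrane, cholesterol transfer proteins, and subunits of the vacuolar H+-ATPase (V-ATPase). They were listed by name and function, at a time when earlier results of these data were known, and all 49 were matched by GENCODE gene name among 21938 protein-coding genes of the mouse genome (mm10). H3K27-me3 ChIP-seq peaks of fasted mouse liver were examined around their start sites. All mice were male JMJD3-floxed C57BL/6 animals, so both groups carried the floxed allele of JMJD3, a demethylase that removes the methyl marks of H3K27-me3. At 8 weeks of age they received AAV-TBG-Cre, in which a hepatocyte promoter drives Cre, or AAV-GFP, and livers were taken 12 weeks later after a 16 h fast. Cre was thus directed at hepatocytes and not at the other cells of the liver. Each group had 2 H3K27-me3 and 2 input libraries, and the deposited data are 1 list of enriched regions per group that combines both replicates. The lists therefore hold no value per mouse, no spread between replicates and no read depth, and a peak is a call that is present or absent, not a level. No test between the groups was possible. Peaks cannot show the loss of the floxed exons, so the labels were not checked this way.

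Lysosomes degrade proteins, glycans, lipids and glycogen delivered by endocytosis and autophagy, a supply route that the liver uses during fasting. The V-ATPase acidifies the lysosome: its cytosolic V1 sector splits ATP and its membrane V0 sector carries protons, and several subunits have a second form used in few tissues, such as the acid-secreting cells of the kidney or osteoclasts. Many lysosomal genes hold the sequence CACGTG near their start, the core of the element bound by TFEB. H3K27-me3 is the mark of Polycomb repression and lies mainly over CpG-rich starts of silent genes. The question put to these genes was whether H3K27-me3 regions were called at other places in livers with hepatocyte downregulation of JMJD3.

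A peak lay over a start site of 7 of the 49 genes in AAV-Cre and of 3 in AAV-GFP. In AAV-Cre these were Mcoln2 and Mcoln3, cation channels of the endolysosome, Cd63, a tetraspanin, Cln3, the membrane protein lost in juvenile Batten disease, Ctsc, the protease that activates granule serine proteases of blood cells, and the V-ATPase subunits Atp6v0a4 and Atp6v1c2. In AAV-GFP they were Mcoln2, Cd63 and Atp6v1c2. No further gene gained a peak when the window was widened to 1 kb on either side. The 7 genes were 14.3% of the members (Wilson 95% interval 7.10 to 26.7%), beside 23.9% of all protein-coding genes with a peak within 1 kb in AAV-Cre. The 3 genes of AAV-GFP were 6.12% (2.10 to 16.5%), beside 16.6% of all genes. Both shares of the members were the lower ones, with an interval that holds the share of all genes in AAV-Cre and ends just below it in AAV-GFP. The intervals cover counting error only, and the difference was not tested. Within 1 kb, 4 members (8.16%) had a peak in AAV-Cre but not AAV-GFP, beside 7.62% of all genes, and 0 had the reverse, beside 0.287%.

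Promoter windows are shown for 6 of the 7 genes, because they are the DNA that lay under the start-site peaks. Each runs from 250 bases before to 50 bases after a RefSeq start site (GRCm38.p6, the assembly of mm10), is written 5′ to 3′ along the gene's strand, and has its CpG dinucleotides in capitals. The window of Mcoln2 (chr3:146149924-146150223, plus strand) held 26 CpG and lay wholly under peaks of both lists. That of Mcoln3 (chr3:146121541-146121840, plus strand) held 12 CpG and lay under the AAV-Cre peak alone. The Atp6v1c2 window (chr12:17324681-17324980, minus strand) held 22 CpG and was covered in both lists, and the Ctsc window (chr7:88277835-88278134, plus strand) held 12 and was covered in AAV-Cre. The Cd63 window (chr10:128909095-128909394, plus strand), with 6 CpG, was covered in both lists. The covered Cln3 window (chr7:126585768-126586067, minus strand), with 4 CpG, was covered in AAV-Cre.
Mcoln2: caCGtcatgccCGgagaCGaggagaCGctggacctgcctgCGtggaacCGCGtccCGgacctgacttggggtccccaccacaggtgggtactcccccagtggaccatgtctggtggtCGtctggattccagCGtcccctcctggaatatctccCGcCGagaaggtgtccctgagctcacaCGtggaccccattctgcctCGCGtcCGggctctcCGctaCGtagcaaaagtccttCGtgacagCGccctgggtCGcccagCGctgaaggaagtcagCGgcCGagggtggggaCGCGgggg
Mcoln3: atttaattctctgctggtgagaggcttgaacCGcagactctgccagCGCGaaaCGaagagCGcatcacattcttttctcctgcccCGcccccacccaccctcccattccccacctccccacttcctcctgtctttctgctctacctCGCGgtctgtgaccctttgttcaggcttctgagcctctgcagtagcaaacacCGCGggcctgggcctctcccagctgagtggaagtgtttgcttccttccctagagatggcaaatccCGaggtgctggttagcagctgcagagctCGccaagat
Atp6v1c2: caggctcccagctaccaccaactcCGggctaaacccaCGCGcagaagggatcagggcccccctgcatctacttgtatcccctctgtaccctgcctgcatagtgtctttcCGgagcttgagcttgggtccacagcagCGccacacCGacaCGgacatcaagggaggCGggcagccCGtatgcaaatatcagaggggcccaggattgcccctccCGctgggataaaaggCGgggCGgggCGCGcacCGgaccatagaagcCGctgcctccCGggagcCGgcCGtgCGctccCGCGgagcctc
Ctsc: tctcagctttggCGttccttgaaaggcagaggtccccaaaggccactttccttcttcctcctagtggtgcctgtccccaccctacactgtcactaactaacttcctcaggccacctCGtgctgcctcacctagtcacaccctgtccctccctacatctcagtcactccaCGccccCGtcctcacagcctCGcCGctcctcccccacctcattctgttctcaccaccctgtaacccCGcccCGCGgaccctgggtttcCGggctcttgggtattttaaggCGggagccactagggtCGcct
Cd63: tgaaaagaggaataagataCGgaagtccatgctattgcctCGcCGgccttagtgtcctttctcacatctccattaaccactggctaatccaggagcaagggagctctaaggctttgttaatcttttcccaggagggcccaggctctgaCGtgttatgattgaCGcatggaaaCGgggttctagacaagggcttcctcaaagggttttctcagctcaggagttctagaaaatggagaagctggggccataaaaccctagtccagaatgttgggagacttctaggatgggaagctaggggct
Cln3: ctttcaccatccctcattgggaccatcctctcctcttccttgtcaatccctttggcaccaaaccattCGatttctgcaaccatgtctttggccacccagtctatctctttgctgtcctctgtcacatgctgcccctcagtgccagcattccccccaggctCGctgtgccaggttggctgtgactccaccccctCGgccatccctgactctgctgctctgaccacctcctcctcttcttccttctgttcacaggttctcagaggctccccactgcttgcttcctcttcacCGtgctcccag

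The covered starts differed in composition, from 4 CpG at Cln3 to 26 at Mcoln2, and the median over the 45 RefSeq windows of 39 members was 13, beside 14 over 20150 windows of all genes. For Atp6v0a4 no window is shown, since the RefSeq start site lies 13910 bp from the AAV-Cre peak. Its window holds 1 CpG. The covered start of Atp6v0a4 is an alternative GENCODE start site.

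The Mcoln2 start was called in both groups. In AAV-Cre a peak of 834 bp (chr3:146149640-146150473) covered both of its start sites, with a fold enrichment over input of 5.25 and a q-value of 3.9e-13 within that list. In AAV-GFP a peak of 737 bp covered the same starts, at a fold of 4.10 and a q-value of 3.0e-06. A further 3 AAV-Cre peaks followed within 5 kb inside the gene, where AAV-GFP had none. Mcoln3 lies directly before Mcoln2 on the same strand. Its start was covered in AAV-Cre by a peak of 1147 bp (chr3:146120984-146122130, fold 4.73, q-value 1.4e-10). The nearest AAV-GFP peak was 149 bp wide and lay 3838 bp before the start, inside a wider AAV-Cre peak. The AAV-Cre list as a whole covers 73.7 Mb and the AAV-GFP list 14.9 Mb, so covered shares are not comparable between the lists. Within each list, peaks covered 16.9% of the Mcoln3 gene body in AAV-Cre and 0.612% in AAV-GFP, and 10.3% and 1.47% of that of Mcoln2. Their relative Mcoln1, the broadly expressed channel, had no peak within 50 kb: its nearest lay 123354 bp away in AAV-Cre and 715399 bp away in AAV-GFP.

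Cd63 carried the widest and strongest call over a member's start. A peak of 5879 bp (chr10:128907204-128913082) covered 2 of its start sites in AAV-Cre at a fold of 9.45 and a q-value of 1.2e-56, and another of 634 bp covered its first start. In AAV-GFP the corresponding peak was 2257 bp wide (fold 5.65, q-value 1.8e-20) and lay over 1 start. AAV-Cre peaks covered 54.1% of the Cd63 gene body and AAV-GFP peaks 23.3%, the highest shares of any member in either list. These shares, too, are not comparable between the lists. Peaks went on before the gene to the start of Gdf11, a developmental growth factor gene, which was covered in both lists. Atp6v1c2, a C subunit form of the V1 sector, had a single AAV-Cre peak of 2734 bp over 3 of its 4 start sites (chr12:17322911-17325644, fold 6.79, q-value 3.3e-22). The AAV-GFP list had a peak of 1663 bp over the same number of starts, with a fold of 4.02 and a q-value of 1.8e-07. The broadly expressed form Atp6v1c1 had its nearest peaks 73257 bp and 414879 bp away.

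The remaining start-site calls were made in AAV-Cre alone. At Ctsc a peak of 1463 bp (chr7:88277093-88278555, fold 5.39, q-value 1.4e-13) covered both starts, and the nearest AAV-GFP peak, 187 bp wide with a q-value of 1.0, lay 7929 bp before the gene. At Atp6v0a4, a V0 subunit form of kidney intercalated cells, the peak was 1610 bp wide (chr6:38109067-38110676, fold 5.21, q-value 8.2e-13) and also covered the start of Tmem213, which lies within the gene. The nearest AAV-GFP peak lay 454092 bp from an Atp6v0a4 start. At Cln3 a peak of 4493 bp (chr7:126584293-126588785, fold 4.69, q-value 1.4e-10) covered 1 of its 4 start sites and the start of the neighbouring gene Apobr. The CpG-rich Cln3 start, with 18 CpG in its window, lay 1057 bp outside that peak. The nearest AAV-GFP peak at Cln3 was 121 bp wide, with a q-value of 0.121, and lay 1595 bp away over Apobr. Both at Cln3 and at Atp6v0a4, member and neighbour cannot be told apart as the gene that the peak belongs to.

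**Figure D1:**
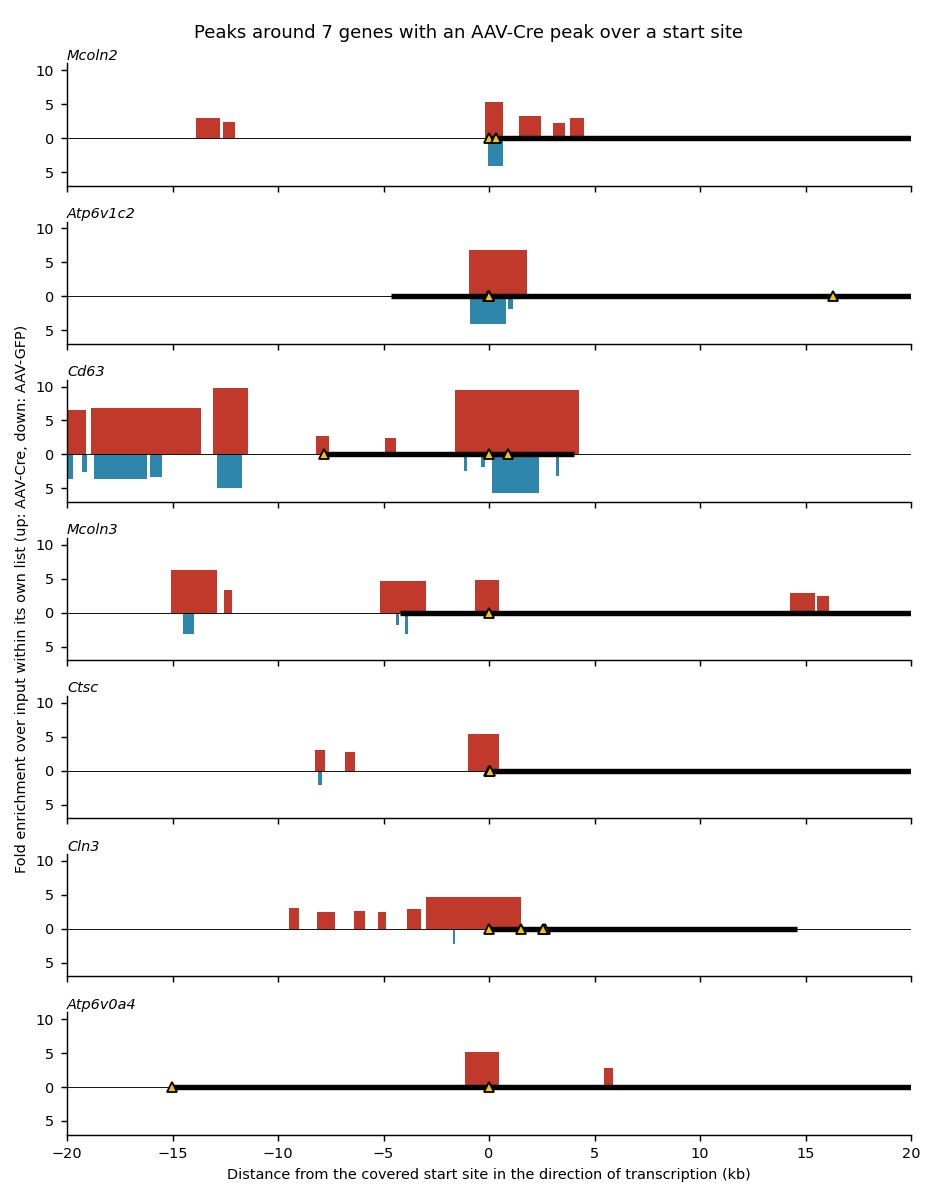
Peaks around the 7 members with an AAV-Cre peak over a start site, plotted by distance from the covered start in the direction of transcription (kb). The black bar is the gene, triangles are its start sites, and bar height is fold enrichment over input within its own list (AAV-Cre up, AAV-GFP down; heights are not comparable between lists). Mcoln2, Atp6v1c2 and Cd63 have bars on both sides of the line at the start, and Mcoln3, Ctsc, Cln3 and Atp6v0a4 only above it.

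Within 15 kb of a start site, the window of the study, 21 members had an AAV-Cre peak and 12 an AAV-GFP peak. The AAV-Cre count was 42.9% of the members (30.0 to 56.7%), beside 41.5% of all protein-coding genes, and the AAV-GFP count was 24.5% (14.6 to 38.1%), beside 27.9%. All 12 genes marked in AAV-GFP were also marked in AAV-Cre. The 9 genes marked only in AAV-Cre were 18.4% of the members (9.98 to 31.4%), beside 14.8% of all genes, and 0 were marked only in AAV-GFP, beside 1.22%. Each of these shares lay near that of all genes, whose value was inside the members' interval every time. Within 50 kb the counts were 32 in AAV-Cre (65.3%, beside 61.7%) and 25 in AAV-GFP (51.0%, beside 46.6%), with 9 only in AAV-Cre (18.4%, beside 17.2%) and 2, Neu1 and Atp6v1g3, only in AAV-GFP (4.08%, beside 2.09%). The median distance to the nearest peak was 27.8 kb in AAV-Cre and 49.3 kb in AAV-GFP for the members, beside 26.7 and 58.3 kb for all genes. The AAV-Cre list is the longer, with 59267 peaks over 73.7 Mb against 34586 over 14.9 Mb. With the 34586 top peaks by p-value of each list, 20 members were marked in AAV-Cre (40.8%, beside 36.1% of all genes), 12 in AAV-GFP (24.5%, beside 27.9%) and 8 only in AAV-Cre (16.3%, beside 10.0%). In bulk liver, more cells with the mark, more of the mark per cell, and a difference in depth or peak calling cannot be told apart.

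**Figure D2:**
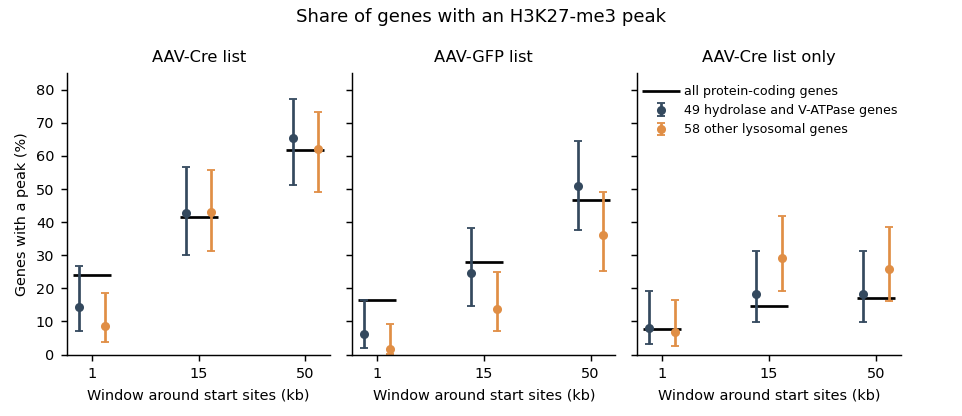
Share of genes (%) with a peak within 1, 15 and 50 kb of a start site in AAV-Cre, in AAV-GFP and in AAV-Cre only. Points are the 49 members and 58 other lysosomal genes with Wilson 95% intervals, which cover counting error only, and black lines are all 21938 protein-coding genes. At 15 kb the members sit at 42.9% and 24.5%, beside lines at 41.5% and 27.9%.

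By role, 5 of the 9 genes marked only in AAV-Cre encode proteases. Of 12 protease genes, 7 were marked within 15 kb in AAV-Cre (58.3%, beside 41.5% of all genes) and 2 in AAV-GFP (16.7%, beside 27.9%), and the 5 marked only in AAV-Cre were 41.7% (19.3 to 68.0%), beside 14.8%. That interval does not hold 14.8%, but the roles were drawn up with earlier results known. Of the 5, Ctsd and Ctsz had only peaks closer to another gene, which leaves Ctsf, Ctso and Ctss. Of 10 genes for membrane proteins and lipid transfer, 5 and 4 were marked, and of 8 for glycosidases and sphingolipid degradation, 3 and 2. For the V-ATPase, 3 of 7 V0 genes were marked in AAV-Cre and 1 in AAV-GFP, and the same 3 of 12 V1 genes, Atp6v1b1, Atp6v1c2 and Atp6v1g1, were marked in both. With 7 to 12 genes per role the intervals overlapped widely, for example 32.0 to 80.7% for proteases and 8.89 to 53.2% for V1 genes in AAV-Cre, which both hold the 41.5% of all genes, and no difference between roles was tested.

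Among the proteases, Ctss, a cysteine protease that trims the invariant chain of MHC class II in antigen-presenting cells, had the closest call after Ctsc. An AAV-Cre peak of 623 bp (fold 3.30, q-value 8.4e-05) lay 1911 bp before its start, and the nearest AAV-GFP peak was 55259 bp away. The same AAV-Cre peak was the nearest to Ctsk, the collagen-degrading protease of osteoclasts, whose start lies 24997 bp from it. Ctso, a cysteine protease, had a single AAV-Cre peak of 924 bp at 7902 bp (fold 3.12, q-value 0.00029) in intergenic DNA, with no AAV-GFP peak within 140569 bp. For the other proteases the calls lay over a neighbouring gene or closer to its start. The peak 6427 bp before Ctsz, a carboxypeptidase, was closer to the start of Tubb1. The 4 peaks 9316 bp and more from Ctsf lay over exons of Actn3, a muscle actin crosslinker, and the nearest AAV-GFP peak was 21887 bp from Ctsf. Ctsf held the closest start site of 1 of the 4. The peaks near Tpp1, a tripeptidyl peptidase, lay over exons of Dchs1, a large cadherin gene. Tpp1 nevertheless held the closest start site of its 4 AAV-Cre and 2 AAV-GFP peaks within 15 kb. The strongest of them was 3773 bp wide at 8649 bp (fold 9.92, q-value 2.2e-39), and an AAV-GFP peak of 1806 bp lay inside it at 9528 bp (fold 3.90, q-value 6.9e-09).

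Ctsd, the main aspartic protease of lysosomes, shows how the window edge set a call. Its AAV-Cre peak of 3161 bp covered the start of Ifitm10 (fold 8.17, q-value 2.0e-28) and began 14982 bp from the nearest Ctsd start, just inside the window, with 19 bp of the peak inside it. The AAV-GFP peak over the same Ifitm10 start lay at 15243 bp, just outside. Ctsd therefore counted as marked only in AAV-Cre although both lists had a peak at the same place. The next member outside the window in AAV-Cre was Hexa, the alpha subunit of beta-hexosaminidase, at 19002 bp with the closest start that of Tmem202, and at 21542 bp in AAV-GFP. The member just inside the window in AAV-GFP was Gaa at 14357 bp.

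The 8 genes for glycosidases and sphingolipid degradation had no peak in the gene body in either list and none within 5 kb of a start. The interval of 0 of 8 runs up to 32.4%. It holds the shares of all genes within 5 kb, 30.1% in AAV-Cre and 20.5% in AAV-GFP. Gaa, which degrades lysosomal glycogen, had 4 AAV-Cre peaks from 9008 bp onward, all over Ccdc40 but with a start of Gaa the closest. The AAV-GFP peak at 14357 bp, with a q-value of 5.4e-05, lay inside the outermost of them. Naglu, an enzyme of heparan sulfate breakdown, had 1 AAV-Cre peak at 8399 bp (1763 bp wide, q-value 3.5e-07), which covered the start of Hsd17b1. Glb1, the acid beta-galactosidase, had an AAV-Cre peak of 510 bp at 8923 bp (fold 3.78, q-value 1.5e-06) and an AAV-GFP peak of 204 bp inside it (q-value 0.457). The start of Crtap was closer to both. Npc2, which hands cholesterol to the membrane protein NPC1, had 4 AAV-Cre peaks from 6922 bp onward, at q-values of 0.0086 to 0.023. All were closer to Isca2, the outer ones lay over Ltbp2, and the nearest AAV-GFP peak was at 20578 bp.

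Among V-ATPase genes, Atp6v1b1, the B subunit form of kidney intercalated cells, had the most AAV-Cre peaks within 15 kb, 9 in all, without one over its start. They began 5078 bp before the start over an exon of Vax2, a homeobox gene, and continued inside the gene to its 3′ end, where a peak of 1967 bp had a fold of 6.61 and a q-value of 2.5e-19. AAV-Cre peaks covered 36.2% of its gene body and AAV-GFP peaks 5.87%, shares that are not comparable between the lists. The 3 AAV-GFP peaks lay 12930 to 14603 bp away, and the best of them had a q-value of 0.00685. Atp6v1b1 held the closest start site of 6 of the 9 AAV-Cre peaks and of 1 of the 3 AAV-GFP peaks. The broadly expressed relative of Atp6v1b1, Atp6v1b2, had its nearest peaks at 32479 and 32507 bp. Atp6v0a1, the broadly expressed form of the V0 a subunit, had 4 AAV-Cre peaks before the gene from 4162 bp onward (the strongest with a q-value of 1.7e-08) and 1 AAV-GFP peak of 154 bp at 4754 bp (q-value 0.182). Atp6v1g1 had 3 AAV-Cre peaks in intergenic DNA from 5092 bp onward (q-values 0.00095 to 0.0573) and an AAV-GFP peak of 141 bp at 10499 bp (q-value 0.432). At Atp6v0b, a subunit of the proton-carrying ring, the single AAV-Cre peak at 3430 bp (1041 bp wide, fold 6.21, q-value 1.2e-17) covered the start of B4galt2, and the nearest AAV-GFP peak was at 39001 bp.

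The 3 members with the farthest nearest peak were V-ATPase genes in AAV-Cre, and V-ATPase genes and Mcoln1 in AAV-GFP. Atp6v0d2, a V0 subunit of osteoclasts, had its nearest peak 854837 bp away in AAV-Cre and 855241 bp away in AAV-GFP, in both lists at Nkain3. In AAV-Cre, Atp6v1e1 at 165185 bp and Atp6v0c at 132016 bp came next. In AAV-GFP these places were taken by Mcoln1 and by Atp6v0a4, the gene with a peak over a start in AAV-Cre. The nearest peak was closer in AAV-Cre for 41 members (83.7%, beside 76.9% of all genes), closer in AAV-GFP for 5 (10.2%, beside 12.2%) and at distance 0 in both for 3 (6.12%, beside 10.9% of all genes at an equal distance).

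**Figure D3:**
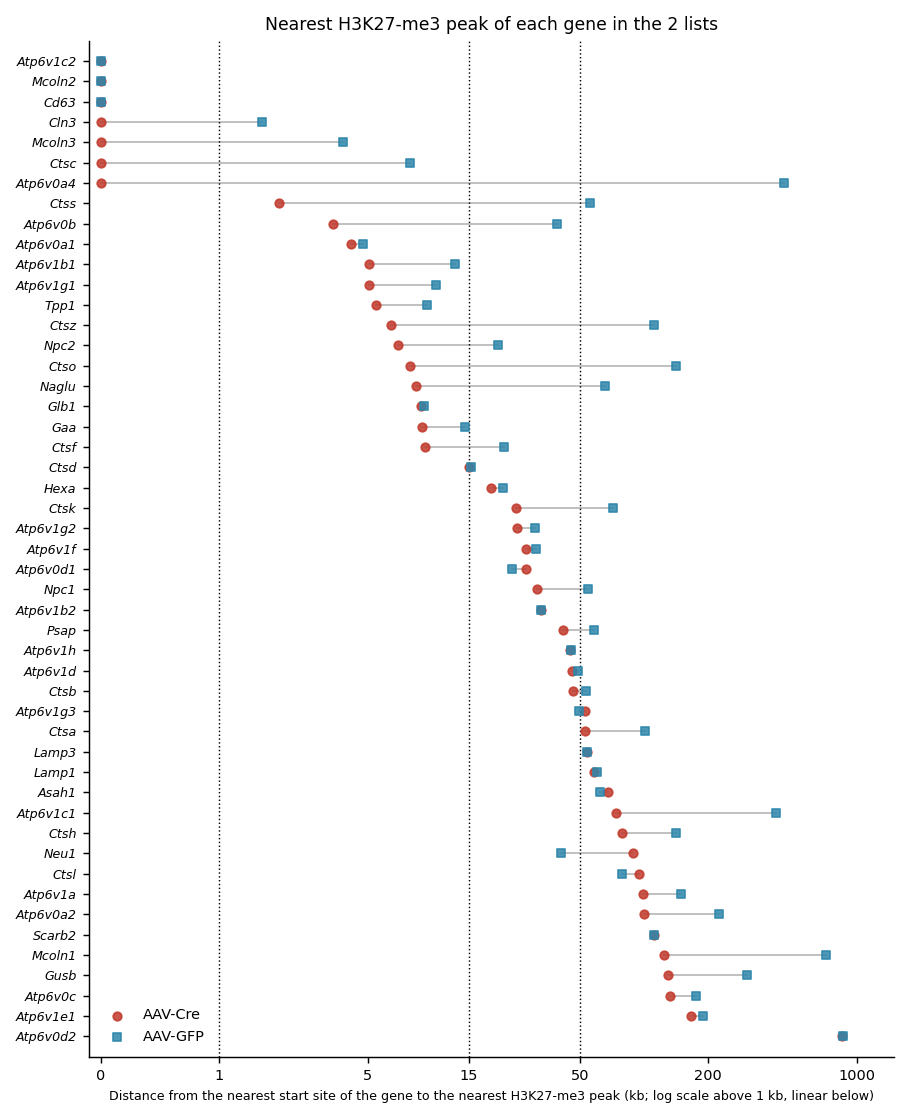
Distance (kb, log scale above 1 kb and linear below) from the nearest start site of each of the 49 members to the nearest peak of AAV-Cre (circles) and AAV-GFP (squares), joined by a line, with dotted lines at 1, 15 and 50 kb. At 0 sit 3 genes in both lists and 4 in AAV-Cre only, and Atp6v0d2 lies farthest to the right in both.

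In median width and fold, the peaks within 15 kb were close to their lists, while those within 1 kb were wider and stronger. Within 15 kb of the members lay 68 AAV-Cre and 26 AAV-GFP peaks, with 1 AAV-Cre peak within reach of both Mcoln2 and Mcoln3. The AAV-Cre peaks had a median width of 747 bp and a median fold of 3.02, beside 753 bp and 2.90 for the whole list, and the AAV-GFP peaks had 206 bp and 2.58, beside 231 bp and 2.61. A q-value of 0.05 or lower was reached by 64 of the 68 (94.1%, beside 88.6% of the list) and by 14 of the 26 (53.8%, beside 46.8%). All 26 AAV-GFP peaks overlapped an AAV-Cre peak, where 86.4% did so over the whole list, and 18 of the 68 AAV-Cre peaks overlapped an AAV-GFP peak (26.5%, beside 24.2%). A member held the closest start site of 44 of the 68 AAV-Cre peaks (64.7%) and of 18 of the 26 AAV-GFP peaks (69.2%). Of the 21 marked genes in AAV-Cre, 9 had a peak in the gene body and 12 had none. Every peak within 15 kb was closer to another gene for 6, namely Ctsd, Ctsz, Npc2, Glb1, Naglu and Atp6v0b. Among the 12 genes marked in AAV-GFP, 5 (Ctsc, Glb1, Cln3, Atp6v0a1 and Atp6v1g1) had no peak at a q-value of 0.05 or lower.

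**Figure D4:**
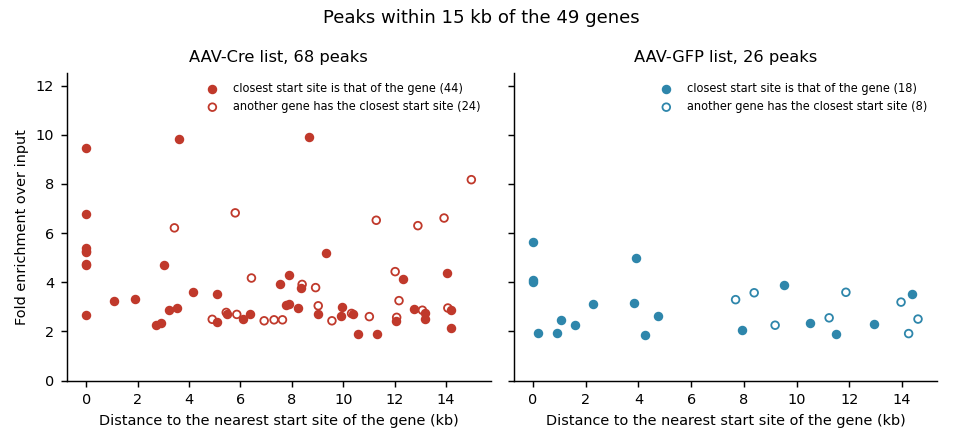
Fold enrichment over input of each peak within 15 kb of a member against its distance to the nearest start site of that member (kb), for 68 AAV-Cre and 26 AAV-GFP peaks. Filled points are peaks whose closest start site belongs to a member (44 and 18) and open points those closer to another gene (24 and 8), and folds are not comparable between the panels.

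The members were also divided by what is generally known of their expression, into 11 genes of restricted tissues (Atp6v0a4, Atp6v0d2, Atp6v1b1, Atp6v1c2, Atp6v1g2, Atp6v1g3, Mcoln2, Mcoln3, Lamp3, Ctsk and Ctss) and 10 broadly expressed relatives (Atp6v0a1, Atp6v0a2, Atp6v0d1, Atp6v1b2, Atp6v1c1, Atp6v1g1, Mcoln1, Lamp1, Ctsb and Ctsl). A peak covered a start of 4 of the 11 restricted genes in AAV-Cre (36.4%, 15.2 to 64.6%) and of 2 in AAV-GFP (18.2%, 5.14 to 47.7%). The shares of all genes, 23.9% and 16.6%, lay within both intervals. No broad relative had a peak within 1 kb in either list (0 of 10, interval up to 27.8%, which also holds both). Within 15 kb, 6 restricted genes were marked in AAV-Cre and 4 in AAV-GFP, against 2 of the broad relatives in each. As shares these were 54.5% and 36.4% of restricted genes, beside 41.5% and 27.9% of all genes, and the interval of the broad relatives, 5.67 to 51.0%, held both of the latter. The median distance to the nearest AAV-Cre peak was 5.08 kb for restricted genes and 52.1 kb for broad relatives, beside 26.7 kb for all genes. In AAV-GFP the medians lay closer together, at 49.3 kb and 56.4 kb, beside 58.3 kb. The intervals of the groups overlap, the division was made with earlier results known, and the difference was not tested. Within 50 kb, 8 of the 11 restricted genes were marked in AAV-Cre (72.7%, beside 61.7% of all genes), and Atp6v0d2, Atp6v1g3 and Lamp3 were not. Unlike the Mcoln, Atp6v1b and Atp6v1c forms compared above, some relatives ran the other way. The nearest AAV-Cre peak lay 854837 bp from restricted Atp6v0d2 and 27794 bp from broad Atp6v0d1. It lay 25191 bp from Atp6v1g2 and 52512 bp from Atp6v1g3, both restricted, and 5092 bp from broad Atp6v1g1.

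The labelled tissue was examined with marker genes. Of 11 hepatocyte markers matched, 0 had a peak within 1 kb in either list and 1, Cyp2e1, had one within 15 kb in both. Start sites or the DNA within 1 kb were marked in AAV-Cre and AAV-GFP for 4 and 4 of 4 stellate cell markers, 4 and 3 of 4 cholangiocyte markers, 3 and 2 of 4 endothelial markers, and 4 and 3 of 4 genes not used in liver. Of 4 Kupffer cell markers, 1, Adgre1, was covered in AAV-Cre and 0 were marked within 1 kb in AAV-GFP. Of all protein-coding genes, 23.9% and 16.6% were marked within 1 kb. The interval of 0 of 11 hepatocyte markers runs up to 25.9% and holds both shares. With 4 markers for each other type the intervals are wide, for example 51.0 to 100% for 4 of 4. The part of other liver cells in the calls at Ctss, Ctsc or Mcoln2 was not tested.

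The core of the TFEB element was more frequent in promoters of the members than in promoters at large, as a description without a test. CACGTG, which reads the same on both strands, was searched in each RefSeq window. It occurred in 14 of the 45 windows of the members (31.1%), beside 8.03% of all 20150 windows of the same length. By gene these were 14 of the 39 with a window: Ctsa, Ctsd, Ctsf, Ctsl, Lamp1, Gaa, Glb1, Naglu, Mcoln1, Mcoln2, Cln3, Atp6v0b, Atp6v0d1 and Atp6v1a. Of the 14 genes with the motif, 2 had an AAV-Cre peak within 1 kb (14.3%) and 8 within 15 kb (57.1%). Of the 25 without it, 5 had one within 1 kb and 12 within 15 kb (48.0%). Of all protein-coding genes, 23.9% and 41.5% did, and the difference by motif was not tested. The motif was found in 4 of the 5 broad relatives with a window and in 1, Mcoln2, of the 10 restricted genes with one. The window of Mcoln1 (chr8:3500269-3500568, plus strand), the broad relative of the Mcoln2 and Mcoln3 sequences above, is shown for contrast and was chosen after its values were seen. It held 30 CpG and 2 copies of CACGTG, given in capitals, and lay under no peak.
Mcoln1: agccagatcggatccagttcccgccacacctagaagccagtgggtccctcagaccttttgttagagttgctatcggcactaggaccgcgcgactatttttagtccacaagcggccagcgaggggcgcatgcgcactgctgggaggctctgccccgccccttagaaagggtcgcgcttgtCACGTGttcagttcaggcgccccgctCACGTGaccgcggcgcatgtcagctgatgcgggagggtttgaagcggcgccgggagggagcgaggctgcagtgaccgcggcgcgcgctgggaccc

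**Figure D5:**
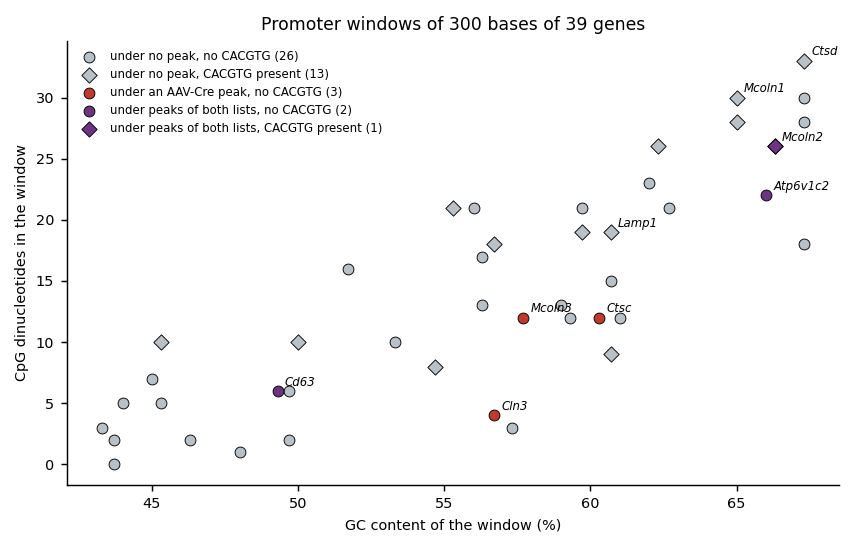
CpG dinucleotides against GC content (%) in the 45 RefSeq promoter windows of 39 members, with diamonds where CACGTG is present and colour for windows under peaks. The 6 windows under an AAV-Cre peak run from 4 CpG (Cln3) to 26 (Mcoln2), and CpG-rich windows such as those of Ctsd and Mcoln1 lie under none.

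The other 58 genes of the lysosome and V-ATPase on a second list were counted in the same way. Within 15 kb, 25 were marked in AAV-Cre (43.1%, 31.2 to 55.9%) and 8 in AAV-GFP (13.8%, 7.16 to 24.9%), with 17 only in AAV-Cre (29.3%, 19.2 to 42.0%) and 0 only in AAV-GFP. The shares of all genes were 41.5%, 27.9% and 14.8%, so the AAV-GFP share of the 58 genes was the lower and the share only in AAV-Cre the higher, each with a counting interval that does not hold the share of all genes. Within 1 kb, 5 had an AAV-Cre peak (8.62%, beside 23.9% of all genes) and 1 an AAV-GFP peak (1.72%, beside 16.6%). No test was made. The 5 were Atp6v0e2, a V0 subunit, Lamp5, a LAMP family member of the brain, Ctsw, a cathepsin of cytotoxic lymphocytes, Ppt1, a palmitoyl thioesterase, and Ostm1, the partner of the chloride transporter ClC-7. The Ostm1 start was covered in both lists by peaks of 10142 and 1935 bp that also covered the start of Nr2e1. Lamp5 had its start-site peak in AAV-Cre alone, 896 bp wide with a q-value of 2.3e-05, and its nearest AAV-GFP peak lay 101670 bp away.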

How the data were processed

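Livers of JMJD3-floxed mice given AAV-TBG-Cre or AAV-GFP were profiled by H3K27-me3 ChIP-seq. The authors mapped reads to mm10 with BWA 0.7.13, filtered them with SAMtools 1.2 and Picard 1.126, called narrow peaks with MACS against a pooled input through the AQUAS pipeline, and kept peaks that overlapped across replicates. Narrow calling splits a broad domain into several peaks. Each deposited peak has a fold enrichment over input and the −log10 of a p-value and of a q-value, as the authors' peak caller gave them. These values describe peaks within a list, and folds were not compared between lists. Absolute depth is unknown.

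Start sites were those of basic transcripts of protein-coding genes (GENCODE M21, GRCm38). Distance was the gap from a start site to the nearest edge of a peak, and 0 where the peak covered it. A gene was marked when a peak lay within 15 kb, the window of the study, with 1 and 50 kb beside it. Shares have Wilson 95% intervals. Members, roles and lists were chosen with earlier results of these data known. Genes are named when marked within 15 kb in a list, when their nearest peak lies 15 to 20 kb away, or when it is among the 3 farthest. Genes closest to described peaks and other lysosomal genes marked within 1 kb are also named. Promoter windows came from RefSeq (GRCm38.p6). They were not used here for Asah1, Atp6v0a2, Atp6v0d2, Atp6v1b2, Atp6v1c1, Atp6v1g1, Atp6v1h, Ctsb, Ctsh and Npc1. Distances were tested on simulated data, with Python 3.11.15, pandas 2.3.3 and numpy 2.4.6.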

Additional observations from a re-analysis of the deposited data

How the results depend on the processing

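Of 135 values over the settings tried, 87 stayed within 1.5 times the reported count and 48 moved further. Requiring a q-value of 0.05 or of 0.01 left 7 members marked in AAV-GFP (14.3%, beside 21.5% and 19.4% of all genes) and 14 only in AAV-Cre (28.6%, beside 19.3% at both), 0 broad relatives in AAV-GFP, and 5 and 4 other lysosomal genes in AAV-GFP. Keeping peaks of 300 bp or wider left 6 members in AAV-GFP (12.2%, beside 4398 of 21938 genes), 15 only in AAV-Cre (30.6%, beside 21.6%), and 0 broad relatives in AAV-GFP. The narrowest AAV-Cre peak is 300 bp wide and the narrowest AAV-GFP peak 120 bp. This setting could therefore remove AAV-GFP peaks only, and the count only in AAV-Cre could not fall. At 1 kb, 7 members were marked in AAV-Cre, 3 in AAV-GFP and 4 only in AAV-Cre, with 0 and 0 broad relatives, 2 restricted genes in AAV-GFP, and 5, 1 and 4 other lysosomal genes. At 5 kb the members numbered 10, 6 and 4 (20.4%, 12.2% and 8.16%, beside 30.1%, 20.5% and 10.2%), broad relatives 1 and 1, and other lysosomal genes 8, 3 and 5. At 50 kb, 32 and 25 members were marked and 2 only in AAV-GFP, with 5 and 4 broad relatives and 21 other lysosomal genes in AAV-GFP. Gene bodies with the 2 kb before them gave 9, 6 and 3 members (18.4%, 12.2% and 6.12%, beside 30.5%, 21.7% and 9.49%), 0 and 0 broad relatives, and 8, 3 and 5 other lysosomal genes. Peaks whose closest start site was that of the gene left 4 members only in AAV-Cre (8.16%, beside 13.1%) and 15, 4 and 11 other lysosomal genes. When the other list had to lack a peak within 50 kb, 5 members (Ctso, Ctss, Ctsz, Naglu and Atp6v0a4, 10.2%, beside 7.91%) and 11 other lysosomal genes remained only in AAV-Cre. The cause was not tested where a setting changes more than its own construction. Equal list sizes, all transcripts, the 5′ end of the gene, and RefSeq start sites, an alternative chosen after seeing the data, gave 20 to 22 members in AAV-Cre and 12 to 13 in AAV-GFP.

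No paired analysis was possible because each list combines both replicates. Leaving out a replicate was not run for the same reason. Depth is unknown, so a missing peak is a missing call and not an absent mark.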

Other observations

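The nearest peak was closer in AAV-GFP for 5 of the 49 genes (10.2%, beside 12.2% of all genes). For Neu1, the lysosomal sialidase, an AAV-GFP peak of 180 bp (q-value 0.166) lay 40735 bp away over the start of Hspa1a, and the nearest AAV-Cre peak 88647 bp away. For Atp6v0d1, the broadly expressed V0 d subunit, an AAV-GFP peak of 288 bp (q-value 0.182) lay at 23808 bp and an AAV-Cre peak of 2109 bp at 27794 bp, both over Agrp. Ctsl, a cysteine protease, had them at 78735 and 94309 bp, Asah1, the acid ceramidase, at 61619 and 67553 bp, and Atp6v1g3, a G subunit form, at 49344 and 52512 bp. All 5 AAV-GFP peaks had a q-value above 0.05.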
